A study of Mus musculus with 16 samples.

Results

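Genes that write, copy and erase DNA methylation were followed through cardiac stem cells (CSCs), cardiomyocytes reportedly made from them (iCMs) and adult cardiomyocytes (aCMs). They were 10 genes picked by symbol and looked up through their Ensembl identifiers, namely Dnmt1, Dnmt3a, Dnmt3b, Dnmt3l, Uhrf1, Uhrf2, Tet1, Tet2, Tet3 and Tdg. All 10 were among the 39043 entries of the total RNA table, and all 10 passed the filter on low counts that left 20254 genes for testing. Between the stem cells and both cardiomyocyte groups, Tet1 was the single gene of the 10 called higher, at 17-fold in iCMs and 17.3-fold in aCMs. Tet1 passed that filter through cardiomyocyte libraries, so its direction against CSCs was set in advance. Against the adult cells, iCMs had higher levels of Uhrf1, Uhrf2 and Tet3.

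Total RNA was measured in 3 CSC, 3 iCM and 2 aCM libraries of wild-type C57BL/6 mice. CSCs were cells without CD45 and CD31 and with c-kit on their surface, sorted from hearts of mice 12 weeks old and grown in a medium with epidermal growth factor, basal fibroblast growth factor and leukemia inhibitory factor. The paper states that a single clone in 3 biological replicates was used for most experiments. By that account, the spread among CSC or iCM libraries is not a spread among clones or animals. For iCMs, clonal cells formed cardiospheres for 4 days and then received a medium with ascorbic acid, to which BMP-4, Activin A, basal FGF, Wnt-11 and Wnt-5a were added until day 8 and Dkk-1 until day 14. The iCM sample is the whole culture, in which cells differ in how far they have differentiated. Adult cardiomyocytes came from perfused hearts, with 2 hearts to a pool, of mice given as 12 weeks old in the isolation protocol and as 10 weeks old elsewhere. No group carried a transgene or a deleted gene.

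As background, DNA methylation in mammals is a methyl group on the cytosine of a CpG pair. DNMT3A and DNMT3B place it on unmethylated DNA, while DNMT1, brought to newly replicated DNA by UHRF1, copies it to the daughter strand. TET enzymes oxidize the methyl group with iron and 2-oxoglutarate, an activity that ascorbate helps to sustain, and the glycosylase TDG cuts out the oxidized base so that repair can restore an unmethylated cytosine. In the heart, cardiomyocytes largely leave the cell cycle soon after birth, whereas the copying step belongs to cells that replicate their DNA.

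Gene counts summed to 29.9 to 63.2 M in CSCs, 13.4 to 31.2 M in iCMs and 11.1 to 14.6 M in aCMs, so a scarce transcript is known least well in the adult cells. Levels are given in CPM, counts scaled to the size of each library by the TMM method of edgeR, and can be compared across libraries of 1 gene but not between genes, since exon lengths were not used here. In bulk RNA, fewer cells of a type and less RNA per cell cannot be told apart. Kit, which encodes the c-kit of the sort, was at 0 to 0.0836 CPM in CSCs, 39.6 to 45.0 CPM in iCMs and 6.80 and 9.86 CPM in aCMs, so this marker of the CSC label was at or near 0 in the CSC libraries. The Y-linked gene Eif2s3y was at 0.106 to 0.175 CPM in CSCs, 29.6 to 33.7 CPM in iCMs, 0.263 CPM in aCMs replicate 1 and 84.8 CPM in aCMs replicate 2. Ddx3y, also Y-linked, was at 0 to 0.0303 CPM in CSCs, 13.8 to 21.75 CPM in iCMs and 0.263 and 35.3 CPM in aCMs. The X-linked Xist was at 562 to 635 CPM in CSCs, 187 to 210 CPM in iCMs and 125 and 68.8 CPM in aCMs. CSC and iCM libraries thus differed in Y-linked transcripts, although both are described as clonal. The origin of the cells and their differentiation cannot be told apart in iCMs vs. CSCs. The methods split the libraries into 2 preparation groups without naming them, so no value within a preparation group can be given.

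The RefSeq start sites of the 10 genes were taken as windows from 250 bases before to 50 bases after a start on GRCm38.p6. Some of the windows are printed below. All 10 genes matched, with 17 windows, because Dnmt1, Dnmt3a and Dnmt3l have 3 annotated starts each and Uhrf1 has 2. Over 32851 such windows of 27025 genes, the median number of CpG pairs was 7. Tet2 had 57 CpG pairs, at percentile 99.9 of all windows, and the Dnmt3l windows had 6, 4 and 3. A search on both strands for an E2F-type motif, spelled TTTCCCGC, TTTCGCGC, TTTGCCGC or TTTGGCGC, found it in 2.3% of all windows. Among the 17 windows it lay in 1 of Dnmt1, at bases -219 and 34 from the start, and in 1 of Uhrf1, at base -185, in windows of 33 CpG pairs each. The letters CCAAT, present in 37.4% of all windows, also lay in both, in another window each of Dnmt1 and Uhrf1, and in those of Tet3 and Tdg. The letters TTTGAA, present in 17.9% of all windows, lay in a different Dnmt1 window and in that of Dnmt3b. Matching letters are a description of the sequence and not a binding site, and the counts per gene do not tell the starts of a gene apart. The Dnmt1 window (chr9:20952574-20952873, minus strand) and the Uhrf1 window (chr17:56304063-56304362, plus strand) are printed 5′ to 3′ with the motif in capitals, because these genes followed cell division most closely of the 10. The windows of Tet1 (chr10:62887275-62887574, minus strand, 17 CpG pairs) and of the first start of Dnmt3l (chr10:78042037-78042336, plus strand, 6 CpG pairs) are printed with CpG pairs in capitals, because Tet1 was the gene called higher in both cardiomyocyte groups and Dnmt3l was scarcely counted anywhere.
Dnmt1: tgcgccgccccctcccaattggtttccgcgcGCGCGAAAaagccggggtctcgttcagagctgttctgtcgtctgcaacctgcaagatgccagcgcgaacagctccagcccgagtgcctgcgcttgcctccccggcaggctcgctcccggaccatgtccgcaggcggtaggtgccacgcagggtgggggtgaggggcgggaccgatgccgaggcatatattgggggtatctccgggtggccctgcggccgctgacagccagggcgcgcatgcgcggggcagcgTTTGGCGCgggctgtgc
Uhrf1: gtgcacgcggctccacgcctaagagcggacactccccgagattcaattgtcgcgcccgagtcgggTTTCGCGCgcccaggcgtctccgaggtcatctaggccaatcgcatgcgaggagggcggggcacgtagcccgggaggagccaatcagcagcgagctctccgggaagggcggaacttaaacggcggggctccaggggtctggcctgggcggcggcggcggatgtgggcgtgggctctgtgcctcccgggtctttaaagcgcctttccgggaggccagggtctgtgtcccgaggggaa
Tet1: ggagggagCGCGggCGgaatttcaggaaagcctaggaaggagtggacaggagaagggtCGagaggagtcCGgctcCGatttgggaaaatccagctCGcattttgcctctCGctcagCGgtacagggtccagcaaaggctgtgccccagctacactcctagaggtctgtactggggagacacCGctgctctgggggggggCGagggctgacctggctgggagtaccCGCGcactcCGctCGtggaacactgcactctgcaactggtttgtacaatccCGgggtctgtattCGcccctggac
Dnmt3l: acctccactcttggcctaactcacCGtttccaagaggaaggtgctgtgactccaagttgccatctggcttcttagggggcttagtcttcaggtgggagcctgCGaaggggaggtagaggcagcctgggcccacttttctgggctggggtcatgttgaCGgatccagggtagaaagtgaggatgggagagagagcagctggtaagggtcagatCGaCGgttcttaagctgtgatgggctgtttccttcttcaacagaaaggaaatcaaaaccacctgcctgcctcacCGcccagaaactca

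Between any 2 of the groups, 1 to 5 of the 10 genes were called, where a call needs an adjusted p below 0.05 (edgeR's quasi-likelihood test, adjusted by Benjamini and Hochberg over 20254 genes) and at least a 2.5-fold difference. In iCMs vs. CSCs, Tet1 was called higher and no gene lower, while 22% of all genes tested were called higher and 7.16% lower. That count of 0 came from edgeR, DESeq2 gave 0 as well, and 2 of the 10 were lower at an unadjusted p below 0.05. In iCMs vs. aCMs, Uhrf1, Uhrf2 and Tet3 were called higher and none lower, beside 19.6% and 15.3% of all genes. DESeq2 also called 0 lower there, and 0 were lower at an unadjusted p below 0.05. In aCMs vs. CSCs, Tet1 was called higher and Dnmt1, Uhrf1, Uhrf2 and Tet3 lower, beside 24.2% and 20.4% of all genes. The 3 comparisons share libraries, so they do not count as independent.

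On the adjusted p alone, Tet1 and Tet2 were higher and Uhrf2 lower in iCMs vs. CSCs, where 26.4% of all genes were higher and 21.9% lower. For iCMs vs. aCMs the adjusted p alone gave 3 genes higher and none lower, beside 26.3% and 22.7% of all genes. For aCMs vs. CSCs, Dnmt3a, Tet1 and Tet2 were higher and Dnmt1, Uhrf1, Uhrf2, Tet3 and Tdg lower, beside 29.4% of all genes in each direction. The libraries of the groups did not overlap for 2 genes higher and 1 lower in iCMs vs. CSCs, beside 30.4% and 27.5% of all genes. In iCMs vs. aCMs they did not overlap for 6 genes higher and 1 lower, beside 40.8% and 33% of all genes, and in aCMs vs. CSCs for 4 higher and 5 lower, beside 34.8% and 37.4%. The median log2 fold change of the 10 genes was 0.03, 0.88 and -0.79 in the 3 comparisons in that order, next to -0.02, 0.19 and -0.10 over all genes.

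**Figure D1:**
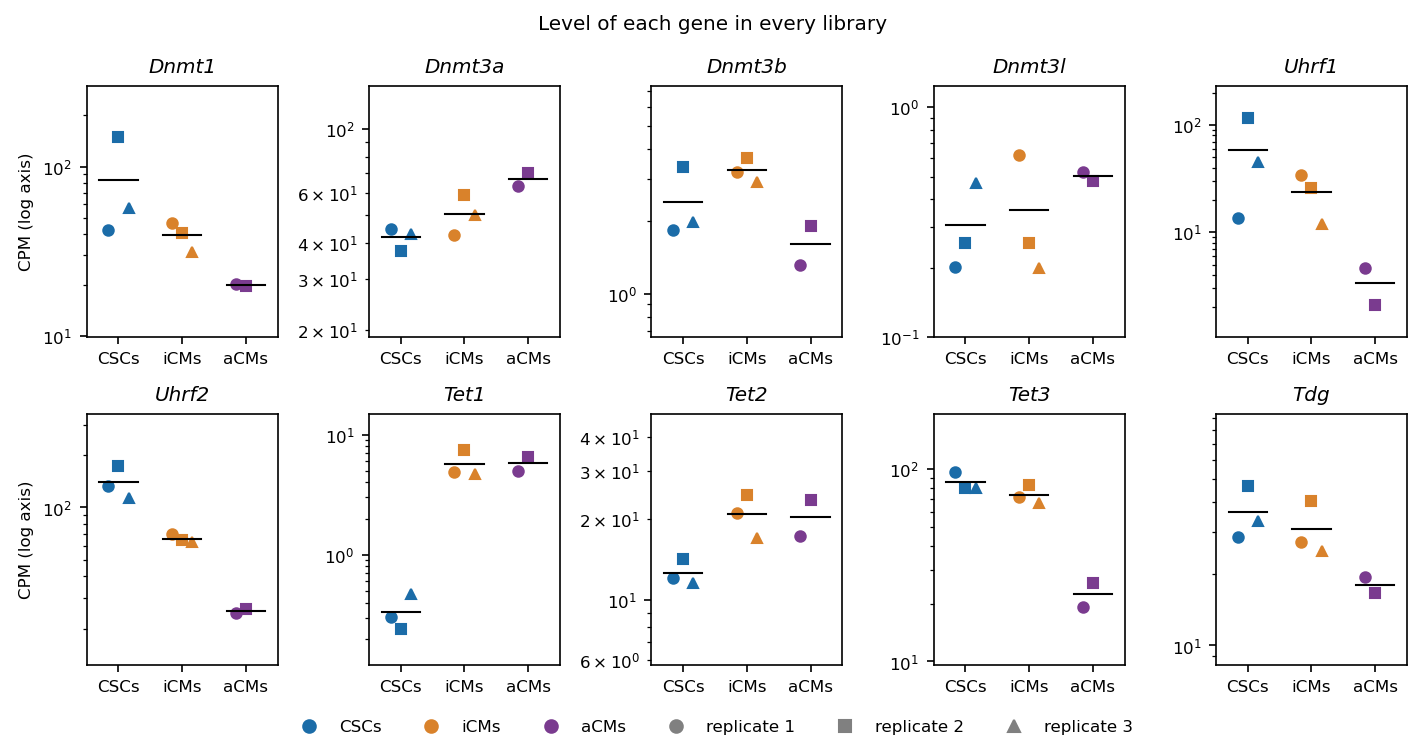
Level of each of the 10 genes in CPM on log axes that differ between panels, with 1 point per library (3 CSCs, 3 iCMs, 2 aCMs) and a black line at the group mean. The 3 CSC points of Tet1, at 0.243 to 0.468 CPM, lie below all iCM and aCM points, while Uhrf1 runs from 2.11 CPM in an aCM library to 115 CPM in a CSC library.

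Dnmt1 (ENSMUSG00000004099, chr9:20907206-20959888), the enzyme that copies methylation after replication, was at 42.4, 149 and 57.0 CPM in CSCs, 46.4, 40.8 and 31.2 CPM in iCMs and 20.2 and 19.7 CPM in aCMs. CSCs replicate 2 stood far above its group, CSCs replicate 1 lay among the iCMs, and both aCM libraries were below all others. The means were 82.9 ± 57.8 (SD, n = 3), 39.5 ± 7.68 (SD, n = 3) and 19.99 ± 0.353 CPM (SD, n = 2). Dnmt1 was called lower in aCMs than in CSCs, with a log2 fold change of -2.05 (SE 0.49, edgeR adjusted p = 0.0049). In iCMs relative to CSCs it missed the call at -1.07 (SE 0.41, edgeR adjusted p = 0.051), and in iCMs vs. aCMs at 0.98 (SE 0.47, edgeR adjusted p = 0.11). Single CSC libraries decided 2 of these results. Without CSCs replicate 1, Dnmt1 was called lower in iCMs vs. CSCs at -1.38 (edgeR adjusted p = 0.010), and without CSCs replicate 2 the value there was -0.33. Without CSCs replicate 2, the difference of aCMs from CSCs was -1.31 (edgeR adjusted p = 0.00092), which is under the 2.5-fold limit.

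Uhrf1 (ENSMUSG00000001228, chr17:56303337-56323486), whose protein reads the half-methylated DNA left by replication and brings in DNMT1, varied more across the 8 libraries than any other of the 10 genes, over a 54.6-fold range. It was at 13.5, 115 and 45.0 CPM in CSCs, 34.2, 25.8 and 11.9 CPM in iCMs and 4.60 and 2.11 CPM in aCMs. CSCs and iCMs overlapped, with CSCs replicate 1 below 2 of the 3 iCM libraries, and both aCM libraries lay under every other. Uhrf1 was called 7.31-fold higher in iCMs than in aCMs (95% interval 1.88 to 28.4, edgeR adjusted p = 0.021) and lower in aCMs than in CSCs at a log2 fold change of -4.14 (SE 0.92, edgeR adjusted p = 0.0032). For iCMs vs. CSCs its log2 fold change was -1.27, with a 95% interval of -2.73 to 0.19 and no call. The aCM values rest on 35 and 22 counts, and without CSCs replicate 2 the difference of aCMs from CSCs was -3.15. The call in iCMs vs. aCMs was lost without iCMs replicate 1 (2.51, edgeR adjusted p = 0.054), aCMs replicate 1 (3.55, 0.062) or aCMs replicate 2 (2.41, 0.14), while without CSCs replicate 1 Uhrf1 was called lower in iCMs vs. CSCs (-1.73, 0.017) and without CSCs replicate 2 its value there was -0.27.

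Uhrf2 (ENSMUSG00000024817, chr19:30030430-30093726), a relative of Uhrf1 that binds hydroxymethylated DNA in biochemical assays, lay lower in each group in turn with little spread within the groups. It was at 133, 174 and 113 CPM in CSCs, 70.4, 64.7 and 63.4 CPM in iCMs and 24.7 and 25.9 CPM in aCMs, and no group overlapped another. Uhrf2 was called 2.62-fold higher in iCMs than in aCMs (log2 1.39, SE 0.22, edgeR adjusted p = 0.00056). Its log2 fold change in aCMs vs. CSCs was -2.47 (SE 0.23, edgeR adjusted p = 8.9e-06). In iCMs vs. CSCs it was -1.08 (SE 0.18, edgeR adjusted p = 0.00099), past the adjusted p but under the 2.5-fold limit and so not called. Both calls held in every alternative run, with the value in iCMs vs. aCMs falling under the 2.5-fold limit once the median of all genes there, 0.19, is subtracted. The missed call became a call at a fold change of 2 or on the adjusted p alone.

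Dnmt3a (ENSMUSG00000020661, chr12:3801559-3914443), the main enzyme that sets methylation in differentiated cells, varied least of the 10 genes, over a 1.87-fold range across all libraries. It was at 44.9, 37.7 and 43.1 CPM in CSCs, 42.9, 58.8 and 50.1 CPM in iCMs and 63.4 and 70.4 CPM in aCMs. The aCM libraries were above all others, and CSCs and iCMs overlapped. The log2 fold change was 0.27 (SE 0.18) in iCMs vs. CSCs, -0.40 (SE 0.20) in iCMs vs. aCMs and 0.68 (SE 0.20) in aCMs vs. CSCs. The last of these passed the adjusted p (edgeR, 0.013) but not the fold, and scaling by library totals only left it at 0.01 and turned iCMs vs. aCMs to 0.30.

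Dnmt3b (ENSMUSG00000027478, chr2:153649411-153687730), the de novo enzyme of the early embryo, was at 1.84, 3.38 and 1.99 CPM in CSCs, 3.23, 3.68 and 2.93 CPM in iCMs and 1.31 and 1.92 CPM in aCMs. It was called in no comparison, and the largest difference, 1.01 on the log2 scale in iCMs vs. aCMs (SE 0.45, edgeR adjusted p = 0.087), missed the threshold although the iCM libraries lay above both aCM libraries. Dnmt3l (ENSMUSG00000000730, chr10:78042287-78063622), a cofactor without enzyme activity that serves de novo methylation in germ cells, gave 12, 17 and 16 counts in CSCs, 23, 7 and 3 in iCMs and 4 and 5 in aCMs. At these counts its log2 fold changes of 0.31 (SE 0.61), -0.41 (SE 0.77) and 0.72 (SE 0.76) in iCMs against CSCs, iCMs against aCMs and aCMs against CSCs could not be told from 0.

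Tet1 (ENSMUSG00000047146, chr10:62804570-62887469), a TET enzyme with a CXXC domain that is abundant in embryonic stem cells, showed the largest change of the 10 genes in iCMs vs. CSCs. It was at 0.301, 0.243 and 0.468 CPM in CSCs, from 18, 16 and 16 counts. In iCMs it was at 4.91, 7.44 and 4.66 CPM, from 182, 202 and 70 counts, and in aCMs at 4.995 and 6.52 CPM, from 38 and 68 counts. Every CSC library was below every cardiomyocyte library, and iCMs and aCMs overlapped. In iCMs relative to CSCs the log2 fold change was 4.09 (SE 0.41, edgeR adjusted p = 3.2e-05), a 17-fold difference with a 95% interval of 9.02 to 32.1. In aCMs vs. CSCs it was 4.11 (SE 0.43, edgeR adjusted p = 2.4e-05). For iCMs vs. aCMs it was -0.02, with a 95% interval of -0.92 to 0.87. With its low counts in CSCs, Tet1 passed the filter through cardiomyocyte libraries, so its direction against CSCs was set in advance. Without a filter on low counts, its log2 fold change was 4.07 in iCMs vs. CSCs and 3.93 in aCMs vs. CSCs.

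Tet2 (ENSMUSG00000040943, chr3:133463677-133545136), which lacks a CXXC domain of its own and is widely expressed in blood and other tissues, moved in the same direction as Tet1 by a smaller amount. It was at 12.1, 14.2 and 11.6 CPM in CSCs, 20.9, 24.4 and 17.0 CPM in iCMs and 17.2 and 23.4 CPM in aCMs, so the CSC libraries were again the lowest. The log2 fold change was 0.72 (SE 0.22, edgeR adjusted p = 0.024) in iCMs vs. CSCs and 0.69 (SE 0.25, edgeR adjusted p = 0.037) in aCMs vs. CSCs, both under the 2.5-fold limit. In iCMs vs. aCMs it was 0.03, with a 95% interval of -0.53 to 0.60. Scaling by library totals only left 0.03 in aCMs vs. CSCs.

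Tet3 (ENSMUSG00000034832, chr6:83362373-83457208), the TET enzyme of the oocyte and of many differentiated cells, went the other way. It was at 96.8, 79.6 and 79.97 CPM in CSCs, 71.2, 82.8 and 66.2 CPM in iCMs and 19.2 and 25.5 CPM in aCMs, with CSCs and iCMs overlapping and both aCM libraries far below. Tet3 was called 3.28-fold higher in iCMs than in aCMs (log2 1.71, SE 0.22, edgeR adjusted p = 0.00015) and lower in aCMs than in CSCs at -1.93 (SE 0.22, edgeR adjusted p = 3.7e-05). For iCMs vs. CSCs the value was -0.22, with a 95% interval of -0.62 to 0.18. Tdg (ENSMUSG00000034674, chr10:82629814-82650799), which removes the bases that TET enzymes oxidize, was at 28.5, 46.8 and 33.4 CPM in CSCs, 27.0, 40.2 and 24.8 CPM in iCMs and 19.3 and 16.6 CPM in aCMs. Its aCM libraries were the lowest, and aCMs vs. CSCs gave -1.02 (SE 0.30, edgeR adjusted p = 0.014), past the adjusted p but under 2.5-fold. In iCMs vs. CSCs it was -0.24 (SE 0.25), and in iCMs vs. aCMs 0.78 (SE 0.30, edgeR adjusted p = 0.052).

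**Figure D2:**
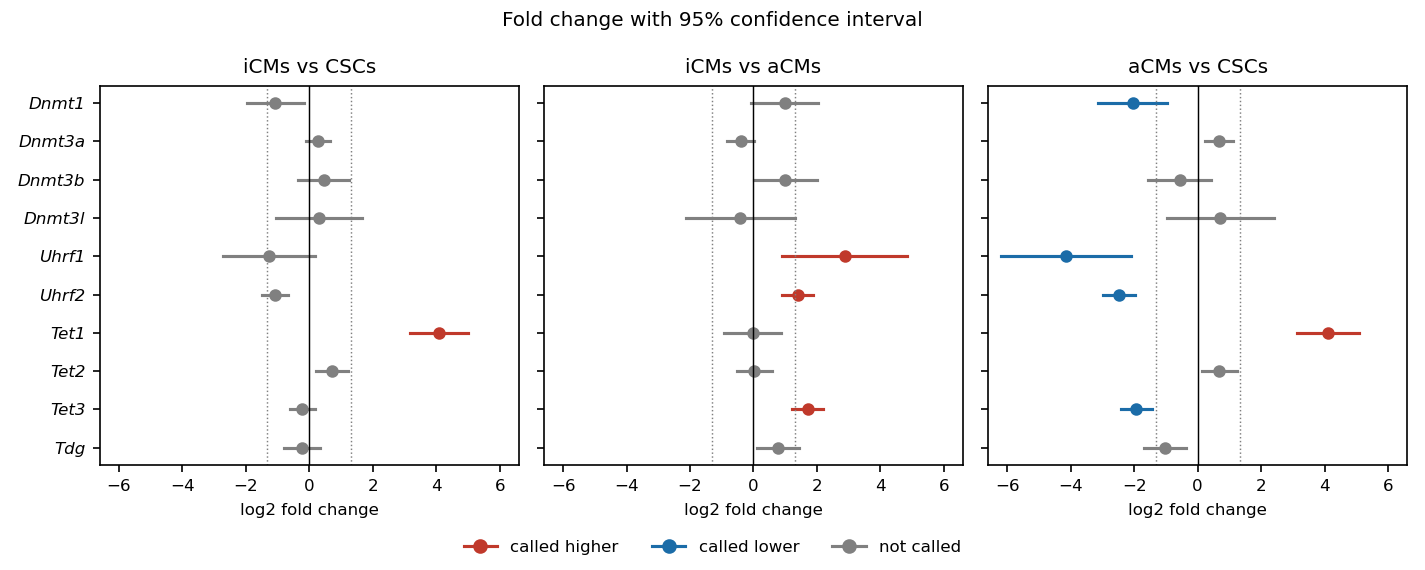
Log2 fold change of the 10 genes for iCMs against CSCs, iCMs against aCMs and aCMs against CSCs, as points with 95% confidence intervals from the edgeR fit and dotted lines at a 2.5-fold difference. Tet1 stands at 4.09 and 4.11 against CSCs and at -0.02 between iCMs and aCMs, and the interval of Uhrf1 is the widest in each panel.

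The Tet genes therefore changed relative to each other, which can be read within a library from differences of log2 CPM, since gene length cancels when such a difference is compared between groups. Tet1 minus Tet3 was -8.06, -8.03 and -7.24 in CSCs, -3.84, -3.47 and -3.81 in iCMs and -1.93 and -1.96 in aCMs. The groups stood in 3 separate steps, with iCMs between CSCs and aCMs. Tet2 minus Tet3 gave the same order of groups, at -2.99, -2.48 and -2.78, then -1.76, -1.76 and -1.96, then -0.16 and -0.12. Tet1 minus Tet2 was -4.45 to -5.55 in CSCs, -1.70 to -2.08 in iCMs and -1.77 and -1.83 in aCMs, so here iCMs and aCMs overlapped. These differences are descriptions of the libraries and carry no test. The summed CPM of the 3 Tet genes, in which a longer transcript weighs more, was 92.0 to 109 in CSCs, 87.8 to 115 in iCMs and 41.4 and 55.4 in aCMs.

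**Figure D3:**
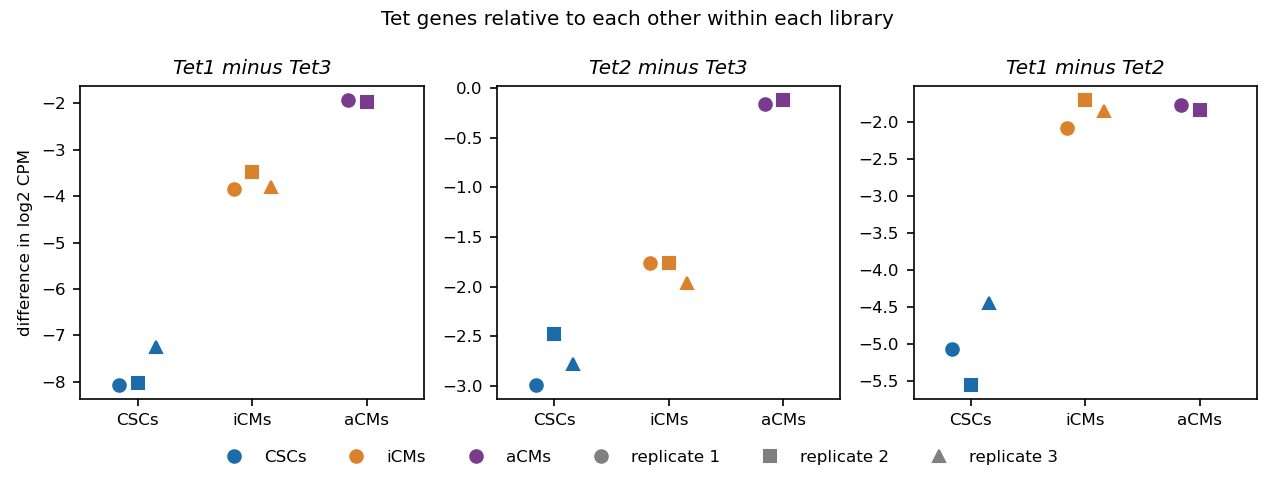
Differences in log2 CPM between pairs of Tet genes within each library, 1 point per library of CSCs, iCMs and aCMs, on axes that do not start at 0. Tet1 minus Tet3 steps up from near -8 in 2 CSC libraries (-8.06 and -8.03) to -1.93 and -1.96 in aCMs, with iCMs at -3.84 to -3.47.

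Cell division was set beside these genes through a list of 26 genes of replication and mitosis. Its median log2 CPM was 3.98, 7.19 and 5.68 in CSCs, 4.86, 4.95 and 4.45 in iCMs and 2.56 and 2.11 in aCMs, so CSCs replicate 2 held the highest level and CSCs replicate 1 lay below all 3 iCM libraries. Over the 8 libraries, which differ in group and depth, Pearson's r of log2 CPM with this median was 0.98 for Uhrf1, 0.95 for Dnmt1, 0.93 for Tdg, 0.86 for Uhrf2, 0.77 for Tet3 and 0.67 for Dnmt3b. It was -0.32 for Dnmt3l, -0.40 for Tet2, -0.59 for Tet1 and -0.85 for Dnmt3a. Uhrf1 minus this median stayed between -0.99 and 0.24 in all libraries. Dnmt1 minus this median was 1.43, 0.03 and 0.16 in CSCs, 0.40 to 0.67 in iCMs and 1.78 and 2.20 in aCMs, so Dnmt1 spanned a narrower range than the division genes. The part of cell division in the differences of Uhrf1, Dnmt1 and Tdg was not tested.

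**Figure D4:**
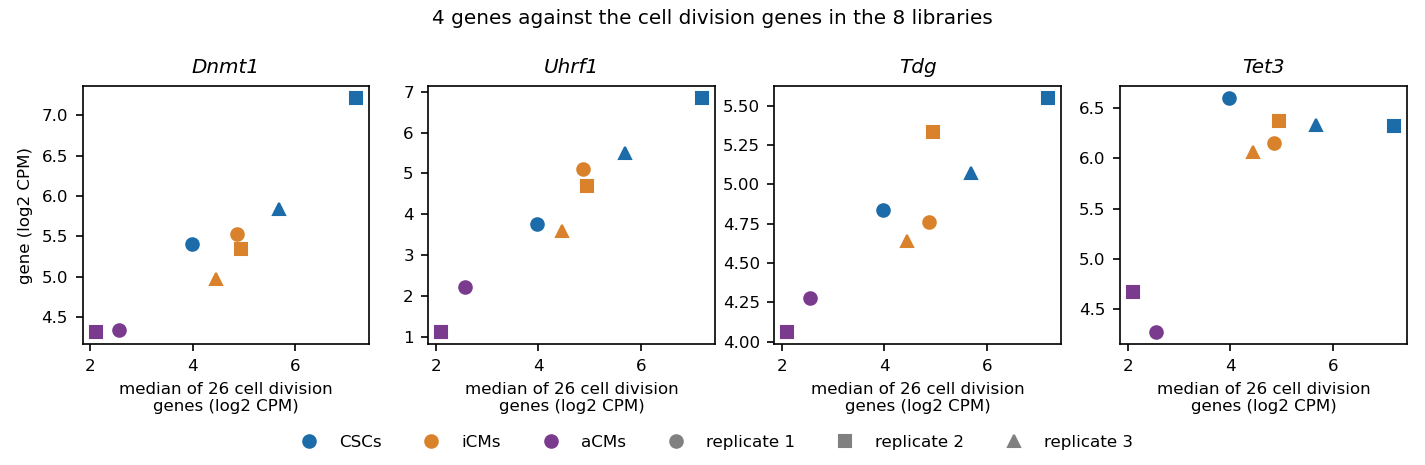
Log2 CPM of Dnmt1, Uhrf1, Tdg and Tet3 against the median log2 CPM of 26 cell division genes, 1 point per library, on axes that do not start at 0. Uhrf1 follows the median from 2.11 in an aCM library to 7.19 in CSCs replicate 2, while the CSC and iCM points of Tet3 lie level across it and both aCM points lie below.

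Between groups, 0 of the 26 division genes were called higher and 10 lower in iCMs vs. CSCs, 18 higher and 0 lower in iCMs vs. aCMs, and 0 higher and 23 lower in aCMs vs. CSCs. DESeq2 gave the same counts of 0, and 0 of the 26 were past an unadjusted p of 0.05 in those directions. Their median log2 fold changes were -1.19, 2.53 and -4.28. For this and the following lists, the shares of all genes called higher and lower were 22% and 7.16% in iCMs vs. CSCs. They were 19.6% and 15.3% in iCMs vs. aCMs and 24.2% and 20.4% in aCMs vs. CSCs. Single libraries moved these counts. In iCMs relative to CSCs 20 were called lower without CSCs replicate 1, 4 without CSCs replicate 2 or iCMs replicate 3 and 5 without iCMs replicate 1. For iCMs vs. aCMs 4 were called higher when either aCM library was left out, and 1 was called lower without CSCs replicate 1.

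The partners of methylation, 17 genes of remodelling, repressive chromatin and replication that work with DNMT1 and DNMT3 enzymes, were mostly lower in the adult cells. Pcna is also in the cell division list, so these lists are not separate. For aCMs vs. CSCs 9 were called lower and 0 higher, with a median log2 fold change of -1.91 beside -0.10 over all genes. Among them Zfp57, a zinc finger protein that keeps methylation at imprinted regions, was at 60.8, 45.2 and 67.3 CPM in CSCs, 23.4, 21.0 and 20.2 CPM in iCMs and 2.497 and 2.59 CPM in aCMs, for -4.50 (SE 0.28, edgeR adjusted p = 6.8e-07). Trim28, its corepressor partner, changed by -1.91 (SE 0.19) and Ehmt2, a histone H3 methyltransferase, by -1.94 (SE 0.19). Cdca7l, a relative of the remodeller cofactor Cdca7, changed by -5.34 (SE 0.77). For iCMs vs. CSCs 4 were called lower and 0 higher (median -0.67), namely Zfp57 (-1.42), Cdca7l (-2.23), Lig1, the ligase of replication (-1.40), and Hells, a chromatin remodeller needed for normal methylation (-2.24). Hells was at 23.7, 152 and 42.8 CPM in CSCs, 19.4, 17.2 and 9.51 CPM in iCMs and 1.58 and 3.35 CPM in aCMs, highest in CSCs replicate 2 like Dnmt1. In iCMs vs. aCMs 8 were called higher and 0 lower (median 0.95), with Zfp57 at 3.08 and Trim28 at 1.46. That count was 5 without aCMs replicate 1 and 4 without aCMs replicate 2. In iCMs vs. CSCs 2 were called lower without CSCs replicate 2 or iCMs replicate 3, and 1 was called higher without iCMs replicate 2. DESeq2 gave 0 in the same directions, and the unadjusted p gave 2 higher in aCMs vs. CSCs, 0 higher in iCMs vs. CSCs and 2 lower in iCMs vs. aCMs.

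The 10 readers of methylated CpG include proteins of the MBD family. In both comparisons of iCMs 0 were called higher and 0 lower by edgeR and by DESeq2, while at an unadjusted p below 0.05 there were 0 higher and 3 lower in iCMs vs. CSCs and 2 higher and 5 lower in iCMs vs. aCMs. In aCMs vs. CSCs Mbd4, a reader that is also a glycosylase, was called lower at -1.98 (SE 0.39, edgeR adjusted p = 0.0015), from 11.1, 12.3 and 11.6 CPM in CSCs to 4.07 and 1.92 CPM in aCMs. Mbd4 is counted again in the list of TET oxidation and base excision repair. The medians of the readers were -0.19 in iCMs vs. CSCs, -0.39 in iCMs vs. aCMs and 0.20 in aCMs vs. CSCs, and without iCMs replicate 3 or aCMs replicate 1 there was 1 reader called higher in iCMs vs. aCMs.

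The 18 genes that work with TET oxidation and base excision repair were called in both directions. In iCMs relative to CSCs 4 were called higher and 2 lower (median -0.56), beside 22% and 7.16% of all genes. The stress-induced genes Gadd45b and Gadd45g, which have been linked to demethylation, were higher by 1.59 (SE 0.17) and 1.49 (SE 0.20), and Gadd45b was at 32.3, 39.7 and 36.4 CPM in CSCs, 123, 109 and 94.2 CPM in iCMs and 11.7 and 11.5 CPM in aCMs. Neil2, a glycosylase of oxidized bases, was called higher at 3.55 (SE 0.86), but from 2, 8 and 0 counts in CSCs. It passed the filter through cardiomyocyte libraries, so its direction against CSCs was set in advance. Cxxc4, whose protein binds unmethylated CpG and interacts with TET2, was lower in iCMs than in CSCs at -1.58 (SE 0.20) and lower in aCMs at -2.54 (SE 0.26), and Nthl1, another glycosylase, was lower in iCMs at -1.37 (SE 0.46). For iCMs vs. aCMs 3 were called higher and 1 lower (median 0.33), beside 19.6% and 15.3% of all genes. In aCMs vs. CSCs 2 were called higher and 6 lower (median -0.62), beside 24.2% and 20.4%. Ung, the uracil glycosylase, was the gene called lower in iCMs than in aCMs (-2.80, SE 0.47), at 2.34, 8.29 and 4.15 CPM in CSCs, 6.15, 7.33 and 3.99 CPM in iCMs and 40.9 and 40.4 CPM in aCMs. Apex1, the endonuclease that follows the glycosylases, was lower in aCMs than in CSCs at -2.37 (SE 0.21). In iCMs vs. aCMs 5 were called higher without CSCs replicate 2 or iCMs replicate 3, and in iCMs vs. CSCs 1 was called lower when any 1 iCM library was left out.

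The supply of 2-oxoglutarate, the TET cosubstrate, and of ascorbate was followed in 16 genes, most of them mitochondrial enzymes. For aCMs vs. CSCs 12 were called higher and 3 lower, with a median of 2.88. Ogdh, which consumes 2-oxoglutarate, was at 169, 170 and 146 CPM in CSCs, 225, 212 and 210 CPM in iCMs and 4148 and 3525 CPM in aCMs. Idh2, the mitochondrial enzyme that can make it, was at 184, 157 and 207 CPM, then 731, 1068 and 888 CPM, then 4399 and 3416 CPM. Against the rest, the cytosolic Idh1 was lower in aCMs than in CSCs at -2.00 (SE 0.36) and the ascorbate transporters Slc23a2 and Slc23a1 at -1.44 (SE 0.33) and -1.54 (SE 0.57). Of these 3, 1 was called without CSCs replicate 1 or without CSCs replicate 2. For iCMs vs. aCMs 12 were called lower and 0 higher (median -2.18), as DESeq2 also gave, with 2 higher at an unadjusted p below 0.05. For iCMs vs. CSCs Idh2 (2.29, SE 0.23) and Idh3a (1.41, SE 0.21), a subunit of the enzyme of the citric acid cycle, were called higher and 0 lower by edgeR and DESeq2, with 3 lower at an unadjusted p below 0.05. Without iCMs replicate 2 the counts were 1 higher there and 1 higher in iCMs vs. aCMs, as without aCMs replicate 2 in the latter.

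Of 19 genes of the methyl donor cycle, which makes and spends S-adenosylmethionine, 18 could be tested. In iCMs vs. CSCs 1 was called lower, Shmt2, a mitochondrial source of 1-carbon units (-1.42, SE 0.44), and 0 higher by edgeR, with 1 higher by DESeq2 and 2 at an unadjusted p below 0.05. Of all genes, 7.16% were called lower and 22% higher there. In iCMs vs. aCMs 3 were called higher and 3 lower (median -0.05), beside 19.6% and 15.3% of all genes. In aCMs vs. CSCs 3 were called higher and 7 lower (median -0.58), beside 24.2% and 20.4%. Mtr, methionine synthase, was at 13.7, 27.9 and 16.6 CPM in CSCs, 20.5, 27.0 and 20.6 CPM in iCMs and 294 and 232 CPM in aCMs, so iCMs lay with CSCs and below aCMs by -3.54 (SE 0.30, edgeR adjusted p = 1.5e-05). Nnmt, which spends methyl groups on nicotinamide, was at 67.6, 38.1 and 95.02 CPM, then 56.9, 44.9 and 63.6 CPM, then 0.920 and 1.15 CPM, so the aCM libraries again stood alone. Gnmt, which spends methyl groups on glycine, and Adk, which clears the adenosine that the cycle releases, were with Mtr the genes called higher in aCMs than in CSCs, at 4.90 (SE 0.74) and 2.36 (SE 0.21). Gnmt gave 14, 20 and 5 counts in CSCs, 5, 25 and 18 in iCMs and 48 and 82 in aCMs. It passed the filter through cardiomyocyte libraries, so its direction against CSCs was set in advance. In iCMs relative to CSCs 3 were called lower without CSCs replicate 1 or 3 and 0 without CSCs replicate 2 or when any 1 iCM library was left out, and 1 was called higher without iCMs replicate 1.

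Of 20 germline genes listed as examples of silencing by promoter methylation in somatic cells, 8 passed the filter on low counts. Methylation was not measured here, and some of the 8 were plainly transcribed. Among the 8, Brdt was at 4.97 to 10.7 CPM in CSCs and iCMs. Tdrkh was at 3.325 to 9.15 CPM over all libraries, and Dazl and Ddx4 were at 0 to 1.97 CPM. Dazl gave 4, 3 and 5 counts in CSCs, 16, 5 and 0 in iCMs and 15 and 7 in aCMs, and Ddx4 gave 4, 0 and 1, then 1, 9 and 4, then 5 and 4. In aCMs vs. CSCs 4 of the 8 were called higher (Piwil2, Sycp3, Dazl and Ddx4) and 1 lower (Brdt), beside 24.2% and 20.4% of all genes. Sycp3 gave 11, 7 and 11 counts in CSCs, 20, 31 and 8 in iCMs and 11 and 13 in aCMs. Dazl, Ddx4 and Sycp3 passed the filter through cardiomyocyte libraries, so their direction against CSCs was set in advance and is no result. In iCMs vs. CSCs 2 were called higher (Sycp1 and Sycp3) and 0 lower, beside 22% and 7.16%. In iCMs vs. aCMs 1 was called in each direction, beside 19.6% higher and 15.3% lower. Sycp1, of the meiotic synaptonemal complex, reached 25.8 CPM in iCMs replicate 1, beside 5.71 and 9.44 CPM in the other iCM libraries and 1.05 to 5.58 CPM in CSCs. Single libraries decided these counts. For iCMs vs. CSCs 0 were called higher without CSCs replicate 1 and 1 without CSCs replicate 2 or iCMs replicate 1 or 2, in iCMs vs. aCMs 0 were called lower without iCMs replicate 2 or 3 or when either aCM library was left out, and in aCMs vs. CSCs 2 were called higher without aCMs replicate 1. DESeq2 gave 0 lower in iCMs vs. CSCs, and 1 was lower at an unadjusted p below 0.05. Since a gene had to reach the filter in some library, the 8 do not stand for the 20.

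For the 5 genes called in any comparison, the genes with the most similar pattern over the 8 libraries were taken from 10033 genes with a mean log2 CPM of at least 3, by Pearson's r of log2 CPM. They were Chaf1a (r = 0.9905), Ahcy (0.987) and Topbp1 (0.985) for Dnmt1, and Pclaf (0.992), Kif22 (0.984) and Gm10143 (0.982) for Uhrf1. For Uhrf2 they were Prrc2c (0.998), Cdon (0.998) and Dzip1l (0.998), for Tet1 Ckb (0.997), Myh7 (0.995) and Slc43a3 (0.995), and for Tet3 Orai2 (0.995), Zdhhc20 (0.994) and Nxf1 (0.994). The points share 3 groups of libraries, so any gene with the same steps between groups scores high. Within the 10, Dnmt1 and Uhrf1 had an r of 0.94, Tet1 and Tet2 of 0.88 and Uhrf2 and Tet3 of 0.90.

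Markers of other cells moved with the groups. Summed over 12 cardiomyocyte genes, all detected in every library, the level was 56.5 to 124 CPM in CSCs, 18440 to 27970 CPM in iCMs and 164100 to 197000 CPM in aCMs. Members of this list differed. Myh7 overlapped between iCMs (871 to 2246 CPM) and aCMs (1302 and 1470 CPM), as Tet1 did. Myl4, Myl7 and Nppa were higher in every iCM than in either aCM library, and the rest of the list was lower. Summed over 8 erythroid genes the level was 0.621 to 2.92 CPM in CSCs, 6377 to 26210 CPM in iCMs and 18.1 to 39.4 CPM in aCMs. Over 8 endothelial genes it was 53.4 to 60.0, 1397 to 1642 and 1165 to 1467 CPM. Over 8 macrophage and leukocyte genes it was 4.27 to 9.97 CPM in CSCs, with Tyrobp at 0, 95.4 to 176 CPM in iCMs and 58.2 to 108 CPM in aCMs, and over 7 lymphocyte genes 0.227 to 0.954, 28.7 to 89.5 and 4.79 to 8.28 CPM, with Cd3g at 0 in aCMs. Endothelial, leukocyte, lymphocyte, erythroid and cardiomyocyte sums were thus all higher in the same libraries as Tet1. The endothelial and leukocyte sums and the single gene Myh7 overlapped between iCMs and aCMs, as Tet1 did. The part of any of these cell types in the result was not tested. Over 8 fibroblast and stromal genes the level was 6111 to 13140 CPM in CSCs, 4392 to 4613 CPM in iCMs and 352 to 596 CPM in aCMs, a sum that in CSCs was mostly Col1a1 and Col3a1. Among single genes of that list, Col1a1 was at 3177 to 4607 CPM in CSCs and 889 to 1083 CPM in iCMs, whereas Postn, at 3.47 to 12.4 and 976 to 1280 CPM, Col1a2, Dcn, Lum and Thy1 were higher in every iCM than in every CSC library. The part of these cells was not tested either. Epicardial and mesothelial genes summed to 174 to 211 CPM in CSCs, with Upk1b at 0, 325 to 608 CPM in iCMs and 17.9 to 18.6 CPM in aCMs, and 8 pluripotent and germ cell genes to 1.99 to 3.94 CPM over all libraries.

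Neighbouring loci that could share reads with these genes were nearly empty. The pseudogene Tdg-ps had at most 4 counts in a library, Dnmt3l-ps1 at most 8, the relative Dnmt3c at most 8, and the antisense genes Dnmt3aos and Dnmt3bos at most 8 and 4. Whether counting used the strand is not given in the sources used here, so reads of the antisense genes cannot be told from those of Dnmt3a and Dnmt3b.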

How the data were processed

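Total RNA was sequenced in 3 CSC, 3 iCM and 2 aCM samples. After depletion of ribosomal RNA, libraries were sequenced as pairs of 100 bp, and the authors mapped these with Strand NGS, using the Ensembl transcript model and, per the submitters' processing notes, the mm10 build. They deposited a table of estimated counts. Its name also says RPKM, but its values were taken as estimated counts that are divided by neither gene length nor depth. Of these values 50.9% were not whole and were rounded. Entries outside the annotation, 956 of 39043, held 0.147% of counts. The small RNA table of the same 8 cell samples was not used here. Every library was kept, none being a copy of another.

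Values were computed with R 4.3.3. The default filter of edgeR 4.0.16 left 20254 genes, libraries were scaled by TMM, and the quasi-likelihood test was fitted to all 8 libraries, since a group of 2 needs the spread of a shared fit. P-values were adjusted over all tested genes by Benjamini and Hochberg, and a call needs an adjusted p below 0.05 and the study's fold change of 2.5. The p-values weigh a difference between groups against the spread among these libraries. Library totals of 11.1 to 63.2 M counts set the precision, given as SE and 95% intervals of that fit. Log2 CPM uses a prior count of 2. The steps were tested on simulated data.

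The text names all 10 genes, the 3 most similar genes of each called one, and per list up to 4 genes of smallest p in a comparison and any called against most of its list. Hells, Lig1, Neil2, Eif2s3y, Ddx3y, Xist and Tdrkh were chosen after their values were seen. So were the single cardiomyocyte markers Myh7, Myl4, Myl7 and Nppa and, in aCMs vs. CSCs, Cdca7l and Ddx4. The 10 genes and the lists were chosen with earlier results of these data known. Alternatives were the size factors of DESeq2 1.42.0 in edgeR, library totals only, DESeq2, no filter, a filter of at least 50 counts and 1 CPM in 2 libraries, fits of the compared groups alone, fits without each library in turn, a replicate block, the adjusted p alone and a fold change of 2. Promoter windows and gene positions are from RefSeq on GRCm38.p6.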

Additional observations from a re-analysis of the deposited data

How the results depend on the processing

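Of 439 recomputed fold changes of the 10 genes, 419 kept their direction and their side of the threshold, 4 lost a call, 6 gained one and 10 reversed, and of 2495 of list genes 2313 kept both, 153 lost a call, 26 gained one and 3 reversed. The reversals were all of differences that were not called. Scaling by library totals only moved the median of all genes to 0.89 in iCMs vs. aCMs and -0.76 in aCMs vs. CSCs, from 0.19 and -0.10. It called 6 of the 10 genes higher in iCMs vs. aCMs instead of 3, adding Dnmt1 (1.70), Dnmt3b (1.71) and Tdg (1.49), and called Tdg lower in aCMs vs. CSCs (-1.67). It called 6706 of all genes higher and 1754 lower in iCMs vs. aCMs (79.3% higher, against 56.2%), and 3816 higher and 6695 lower in aCMs vs. CSCs (36.3% higher, against 54.2%). For iCMs vs. aCMs it turned Dnmt3l to 0.31, Dnmt3a to 0.30, Tet1 to 0.68 and the readers Mbd1 and Zbtb38 to 0.22 and 0.18, and in aCMs vs. CSCs Mbd2 to -0.13. In that comparison of iCMs with aCMs, Tet1 was also 0.14 without a filter, and Tet2 -0.02 with the stricter filter. Leaving out a library gave Tet1 values from -0.26 to 0.21 and Tet2 values from -0.14 to 0.30 there, on both sides of 0. The calls of Tet1 against CSCs and of Uhrf1, Uhrf2 and Tet3 against aCMs held under each scaling as fitted, but relative to the median of all genes Uhrf2 lay under the 2.5-fold limit, also in the reported fit.

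The adjusted p alone gave 2 genes of the 10 higher and 1 lower in iCMs vs. CSCs and 3 higher in aCMs vs. CSCs, and called 4440 of all genes lower in iCMs vs. CSCs. A fold change of 2 gave 1 of the 10 and 2433 of all genes lower there. Leaving out a library gave 0 to 2 of the 10 lower in iCMs vs. CSCs, 2 to 3 higher in iCMs vs. aCMs and 3 to 4 lower in aCMs vs. CSCs. Where it left a single aCM library, that library was assumed to vary like the other groups. Dnmt3l could not be fitted in some settings for its low counts, and low counts also limit Dnmt3b and Uhrf1 in aCMs and Tet1 in CSCs.

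Same-numbered CSC and iCM libraries correlated at 0.03, 0.15 and 0.07 in their deviations from the group means, and differently numbered ones at -0.12 to 0.07, so a number was taken to be only a name. With the replicate number as a block, 4383 of all genes were called higher and 1312 lower in iCMs vs. CSCs, 3764 and 3004 in iCMs vs. aCMs, and 4843 and 3929 in aCMs vs. CSCs. All 30 fold changes of the 10 genes kept their call with the block. CSCs replicate 1 correlated best with iCMs replicate 3, so not every library correlated best with its own number.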
